A study of Homo sapiens with 6 samples.

Results

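Sodium benzoate (SB) was the precursor from which cells made benzoyl-CoA in this study, and the genes described here belong to the enzyme families that activate benzoate and conjugate it with glycine in the liver and the kidney. They are 5 medium-chain acyl-CoA synthetase genes (ACSM1, ACSM2A, ACSM2B, ACSM3 and ACSM5) and 3 glycine N-acyltransferase family genes (GLYAT, GLYATL1 and GLYATL2). The 8 genes were taken by name from the 62663 genes of GENCODE 44 on hg38, of which 20033 are protein-coding. A peak was counted at a gene when it shared at least 1 bp with the gene body plus 5 kb on each side.

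Enzymes of the ACSM family join a carboxylic acid to coenzyme A in the mitochondrial matrix, and the products of ACSM2A, ACSM2B and ACSM1 are known to accept benzoate. GLYAT then transfers the benzoyl group from benzoyl-CoA to glycine, which gives hippurate, the form in which benzoate leaves the body in urine. Histone lysine benzoylation (Kbz) uses benzoyl-CoA as its donor, just as histone lysine acetylation (Kac) uses acetyl-CoA.

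The data were peak lists from ChIP-seq, in which DNA is precipitated with the modified histones an antibody recognises and is then sequenced. Control HepG2 cells, which derive from a liver carcinoma and are grown as a line, were compared with SB-treated HepG2 cells (10 mM for 24 h), with no other difference between them in the labels. Antibodies against acetylated or benzoylated lysine of any protein were used on chromatin digested with micrococcal nuclease, and each of the 6 groups held 1 library. The lists of control Kac (70326 peaks), SB Kac (63282) and SB Kbz (24308) were used. Per the labels, no peaks were called for control Kbz, so Kbz peaks are described here in treated cells alone. The sequencing depth behind each list was unknown, replicate error could not be estimated, and the lists were compared without a test.

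The labelled cell type was checked against 12 hepatocyte markers at their promoters, meaning within 3 kb of any annotated transcription start site (TSS). Control Kac peaks lay at 6 of them, SB Kac peaks at 7 and SB Kbz peaks at 2. Among protein-coding genes, 76.5%, 75.7% and 64.6% had such a peak in these lists. ALB, APOB, SERPINA1, FGB and FOXA2 had no promoter peak in any list, whereas APOA1 had one in each of the 3 lists. Of 5 kidney tubule markers, 4, 4 and 3 had promoter peaks in control Kac, SB Kac and SB Kbz, and of 3 blood markers 1 had a peak in each list, as did 2 of 3 neuron markers. A promoter call can rest on a start other than the canonical one. For example, the nearest SB Kac peak lay 35.4 kb from the canonical TSS of TTR (liver). It lay 27.6 kb from that of SLC12A1 (kidney) and 9.69 kb from that of RBFOX3 (neuron). Several defining liver genes were thus without a called promoter peak, and the part of this in the results below was not tested.

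Peaks were absent from most of these genes. In control Kac, 2 of the 8 genes had a peak in the gene body plus 5 kb, against 82.6% of protein-coding genes and 52.2% of all genes. In SB Kac it was 1 of 8, against 81.4% of protein-coding and 50.4% of all genes. In SB Kbz it was also 1 of 8, against 72.3% of protein-coding and 38.7% of all genes. ACSM3 was the gene with peaks in each list, GLYAT had a control Kac peak and no other, and the remaining 6 genes had no peak in any list. Among protein-coding genes, 15.5% had no peak in any of the 3 lists and 71.5% had one in each.

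At promoters the picture was narrower still. ACSM3 was the member with a promoter peak, and it had one in every list. That made 1 of 8 in each list, against 76.5%, 75.7% and 64.6% of protein-coding genes. The other 7 members had no promoter peak in any list, a pattern found in 21.2% of protein-coding genes, where 64.1% had a promoter peak in each list. The limit on ACSM2A and ACSM2B holds here too. The members were not short genes, being 31.8 to 187.3 kb long, and 8.23% (for ACSM3) to 46.0% (for ACSM5) of protein-coding genes were longer.

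Few of the bases of these genes lay under peaks. The gene bodies with their flanks joined to 657 kb, of which control Kac peaks covered 0.366%, SB Kac peaks 0.451% and SB Kbz peaks 0.217%. Over the chromosomes analysed these lists covered 4.22%, 3.74% and 1.05%.

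The ACSM genes lie side by side on the short arm of chromosome 16, in the order ACSM5, ACSM2A, ACSM2B, ACSM3 and ACSM1, with ACSM1 inside the long annotated body of ACSM3 on the other strand. Every peak called at an ACSM gene lay in the ACSM3 window.

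**Figure D1:**
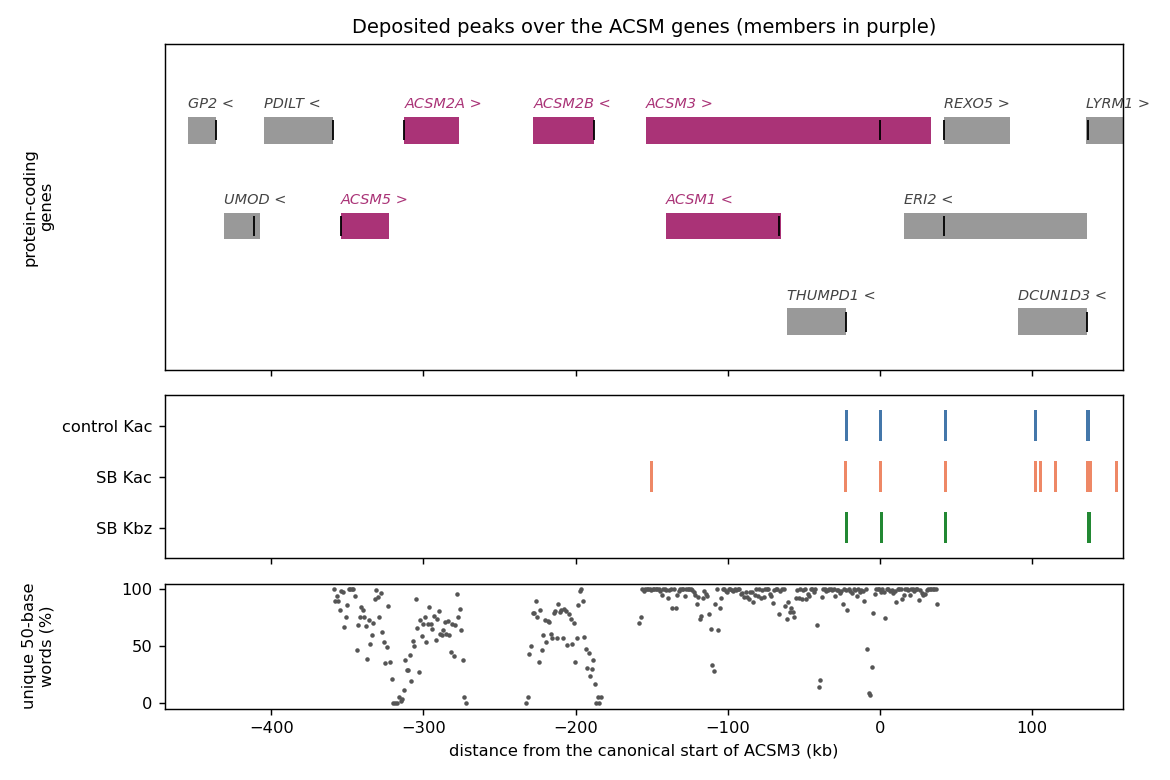
Map of the ACSM genes by distance in kb from the canonical start of ACSM3, with protein-coding genes (members in purple, arrowheads for direction, black ticks for canonical starts), the peaks of each list (drawn wide enough to be seen) and, for each 1 kb of the gene windows, the percent of 50-base words that occur once in hg38. Peaks of all 3 lists stand at the starts of THUMPD1, ACSM3 and ERI2, none stands over ACSM5, ACSM2A, ACSM2B or ACSM1, and the unique share falls toward 0 around ACSM2A and ACSM2B.

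ACSM3 (ENSG00000005187.12, chromosome 16, 20610243 to 20797581, plus strand) encodes a mitochondrial synthetase of medium-chain acyl-CoA. Its canonical TSS at 20764014 was covered by a peak of each list. The control Kac peak spanned 20763376 to 20764141. In SB-treated cells the Kac peak spanned 20763446 to 20764361, and the shorter Kbz peak 20763943 to 20764267. All 3 overlapped exons of transcripts ACSM3-201 and ACSM3-202. Control Kac peaks covered the canonical TSS of 59.1% of protein-coding genes, SB Kac peaks that of 60.4% and SB Kbz peaks that of 45.8%.

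The peaks over this TSS differed in extent and in rank. Relative to the TSS, acetylation was called from -638 to 127 bp in control cells and from -568 to 347 bp after SB, and benzoylation from -71 to 253 bp. The Kbz peak was 325 bp long, and 6.29% of Kbz peaks were shorter. The Kac peaks were 766 and 916 bp long, control first. All of the Kbz peak lay inside the SB Kac peak, and 61.2% of its bases lay inside the control Kac peak. How many peaks of the whole Kbz list lie inside a Kac peak was not counted. The fold of the peak, a linear ratio of read density over the background that the authors' peak caller computed, was 3.86 for the control Kac peak, 3.25 for that of SB Kac and 2.90 for the Kbz peak. Folds of different lists are not on a common scale, so each was ranked in its own list. In the same order they stood at percentiles 75.9, 61.5 and 10.8. The corresponding −log10 q values were 5.997, 3.67 and 2.16. With −log10 q held to 5 or more, the control Kac peak was left and the other 2 were not, so the calls in SB-treated cells rest on the lower threshold of the deposited lists. At that threshold 61.7% of protein-coding genes had a control Kac peak in the gene body plus 5 kb, 65.8% an SB Kac peak and 52.7% an SB Kbz peak.

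**Figure D2:**
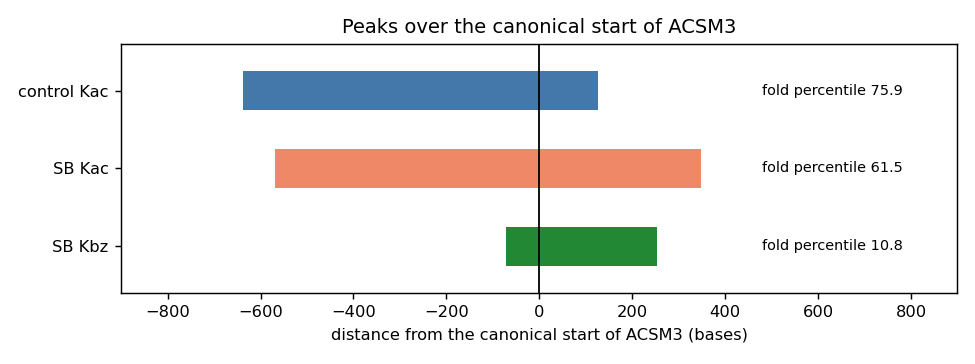
Extent of the control Kac, SB Kac and SB Kbz peaks around the canonical start of ACSM3 (vertical line), in bases, with the percentile of each peak's fold within its own list. The Kbz peak (-71 to 253) is the shortest and ranks lowest, at percentile 10.8.

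The Kbz peak at the ACSM3 start had 43.7% G and C, and 12.4% of Kbz peaks had less, where the median of the list was 54.6%.

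A further group of peaks in the ACSM3 window belonged by position to a neighbour. THUMPD1, a gene for an RNA-binding protein that aids tRNA acetylation, starts at 20741818 inside ACSM3 on the other strand. A control Kac peak (20741026 to 20741906), an SB Kac peak (20740502 to 20742097) and an SB Kbz peak (20741013 to 20742111) covered that start. They lay 7307 to 7512 bp from the closest annotated ACSM3 start, that of transcript ACSM3-209. Their folds stood at percentiles 33.9, 60.4 and 42.8. In this gene body, then, the Kbz peak at the THUMPD1 start ranked above the Kbz peak at the ACSM3 start.

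The last peak of the ACSM3 window was called in SB Kac alone. It reached from 20613178 to 20613629 (452 bp), in an intron of the long transcript ACSM3-213 and 2935 bp downstream of that transcript's start at 20610243. Its fold was 2.76, at percentile 35.4 of the SB Kac list, its −log10 q was 2.07, and neither a control Kac nor a Kbz peak overlapped it. How many peaks of the whole SB Kac list lack such overlaps was not counted, so this is not read as particular to ACSM3. Since ACSM3-213 is not the canonical transcript, the closest canonical start of a protein-coding gene was that of ACSM2B, at 36811 bp. By the rule of 3 kb from any annotated TSS, the peak nevertheless counts as a promoter peak of ACSM3. The middle 300 bases (hg38, plus strand, chr16:20613254-20613553) are given because they are built of short repeats, and CpG dinucleotides are in capitals.

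ACSM3 SB Kac peak: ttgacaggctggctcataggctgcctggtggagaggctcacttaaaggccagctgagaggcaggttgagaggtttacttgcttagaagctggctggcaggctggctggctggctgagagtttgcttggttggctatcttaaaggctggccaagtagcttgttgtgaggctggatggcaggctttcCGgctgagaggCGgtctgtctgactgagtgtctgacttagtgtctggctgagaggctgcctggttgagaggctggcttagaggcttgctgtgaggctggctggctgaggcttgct

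The letters GGCT occurred 23 times on this strand, against 0 to 2 times in the other 300-base stretches given here. Each 50-base word of the peak nevertheless occurred once in the genome.

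The other 4 ACSM genes had no peak. ACSM1 (ENSG00000166743.10, 20623235 to 20698890, minus strand), a butyrate- and benzoate-activating synthetase, was the closest of them to control Kac and SB Kbz peaks. Its canonical TSS lay 43.3 kb from control Kac, 42.8 kb from SB Kac and 43.3 kb from SB Kbz, in each case the peaks at the THUMPD1 start. ACSM2B (ENSG00000066813.14, 20536226 to 20576427, minus strand), which like ACSM2A encodes a xenobiotic and medium-chain synthetase, was 164.7 kb from control Kac and 164.6 kb from Kbz peaks and 36.8 kb from the SB Kac peak described above. ACSM2A (ENSG00000183747.12, 20451461 to 20487669, plus strand) was 290 kb from control Kac, 162 kb from SB Kac and 289 kb from SB Kbz. ACSM5 (ENSG00000183549.10, 20409534 to 20441336, plus strand), a less studied member, was farthest, at 331, 204 and 331 kb.

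ACSM5, ACSM2A and ACSM2B lay in a stretch with no peak of any list from 19992201 to 20613177, which is 621 kb long. Of the 86654 stretches between neighbouring peaks of the joined lists, 0.547% were longer, and the median was 7.14 kb. It held 7 protein-coding genes, GPR139, GP2, UMOD and PDILT besides these members. UMOD, the gene of the kidney protein uromodulin, was among the kidney tubule markers above and the one of them without a promoter peak. ACSM1 lay in a shorter stretch of 127 kb between the SB Kac peak in ACSM3 and the THUMPD1 start, and 4.25% of stretches were longer. These are shares of stretches and not of genes, and a longer stretch can hold more gene starts. The shares of genes farther from a peak are larger and are given below with the distances.

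For ACSM2A and ACSM2B the absence of peaks has a limit set by the reads. The study kept single reads of 50 bases that mapped to 1 place, and the genes are near copies of each other. Alignments of at least 1 kb covered 97.6% of the ACSM2A window, with 97.4% identical bases. Of the 50-base words starting within 3 kb of the canonical TSS, 18.7% were found once in hg38 for ACSM2A and 18.9% for ACSM2B, against 88.1% for ACSM5, 96.0% for ACSM1 and 99.1% for ACSM3. Over the whole gene windows it was 52.1% for ACSM2A, 56.0% for ACSM2B and 71.0% for ACSM5, and at least 91.0% for each of the remaining 5 members. Signal at the starts of ACSM2A and ACSM2B could therefore be seen by few of the reads it would give, and absence there was not shown by these lists. The promoters of this pair are given to show how alike they are, as the 300 bases from 250 before to 49 after each canonical TSS, with the mismatched base in capitals.

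ACSM2A promoter (hg38, plus strand, chr16:20451271-20451570): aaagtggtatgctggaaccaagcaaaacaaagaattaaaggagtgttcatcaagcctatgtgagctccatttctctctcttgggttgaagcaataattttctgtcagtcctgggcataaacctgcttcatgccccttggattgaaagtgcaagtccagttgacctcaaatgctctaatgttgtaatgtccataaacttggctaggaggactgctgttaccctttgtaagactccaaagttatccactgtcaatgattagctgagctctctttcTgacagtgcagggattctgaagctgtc
ACSM2B promoter (hg38, minus strand, chr16:20576318-20576617): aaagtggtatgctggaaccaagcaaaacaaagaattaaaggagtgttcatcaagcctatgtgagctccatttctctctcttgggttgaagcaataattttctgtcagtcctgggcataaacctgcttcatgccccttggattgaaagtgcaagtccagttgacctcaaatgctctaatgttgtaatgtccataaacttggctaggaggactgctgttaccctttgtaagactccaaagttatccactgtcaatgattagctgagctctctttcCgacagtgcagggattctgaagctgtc

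They differed at 1 of 300 bases. A read of 50 bases from within these stretches that missed this 1 position could not be placed in either gene alone.

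The glycine conjugation genes lie together on the long arm of chromosome 11. GLYAT (ENSG00000149124.11, chromosome 11, 58640426 to 58731974, minus strand) is the enzyme that makes hippurate from benzoyl-CoA. It had 1 control Kac peak, from 58659048 to 58659805 (758 bp), and no SB Kac or SB Kbz peak. The peak lay in an intron of transcript GLYAT-205 and 53044 bp downstream of that transcript's start at 58712849. It lay outside the canonical transcript, which ends at 58708757, and 72.1 kb from the canonical TSS at 58731943. The closest canonical start of a protein-coding gene was that of CNTF, at 36383 bp. Its fold of 2.86 stood at percentile 34.5 of the control Kac list, with a −log10 q of 2.35, and it was among the peaks poorest in G and C, at 37.3%, with 6.10% of the list lower. The middle 300 bases of the peak (hg38, minus strand, chr11:58659277-58659576, CpG dinucleotides in capitals) are given because this is the acetylated stretch that was called at GLYAT.

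GLYAT control Kac peak: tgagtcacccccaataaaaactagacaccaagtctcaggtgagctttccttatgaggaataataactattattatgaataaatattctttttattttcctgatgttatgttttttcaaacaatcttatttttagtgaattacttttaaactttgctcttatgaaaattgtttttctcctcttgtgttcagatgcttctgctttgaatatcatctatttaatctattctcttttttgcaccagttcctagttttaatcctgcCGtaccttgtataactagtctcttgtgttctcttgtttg

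These bases held 1 CpG dinucleotide and 30.7% G and C. Whether the level of acetylation there changed with SB cannot be read from a peak called in one list and not in the other, since the call was weak and each list had 1 library. The share of all control Kac peaks without an SB Kac peak was not counted.

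**Figure D3:**
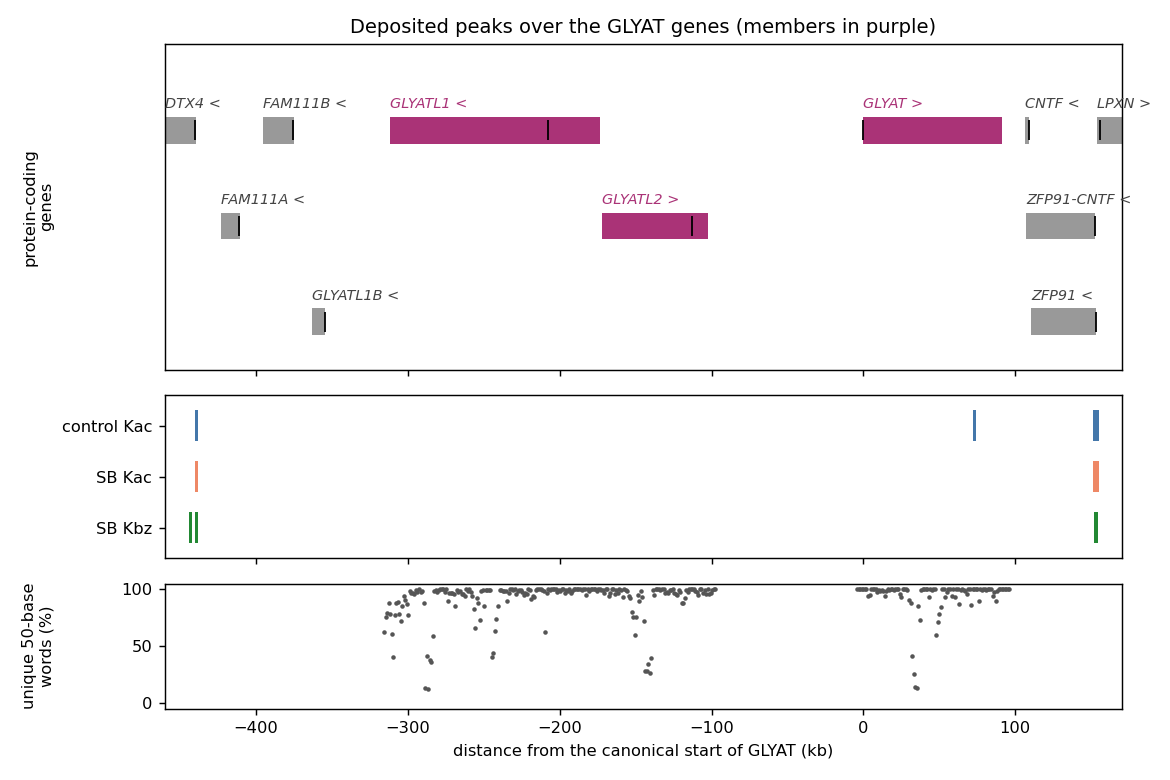
Map of the GLYAT genes by distance in kb from the canonical start of GLYAT, read along the GLYAT strand, with protein-coding genes (members in purple), the peaks of each list (drawn wide enough to be seen) and the percent of 50-base words that occur once in hg38 for each 1 kb of the gene windows. The control Kac peak inside GLYAT lies 72.1 kb downstream of its start, and the other peaks stand at DTX4 and at ZFP91.

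The canonical promoter of GLYAT, which had no peak in any list, is given to show the start of the gene of hippurate synthesis (hg38, minus strand, chr11:58731894-58732193, CpG dinucleotides in capitals).

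GLYAT promoter: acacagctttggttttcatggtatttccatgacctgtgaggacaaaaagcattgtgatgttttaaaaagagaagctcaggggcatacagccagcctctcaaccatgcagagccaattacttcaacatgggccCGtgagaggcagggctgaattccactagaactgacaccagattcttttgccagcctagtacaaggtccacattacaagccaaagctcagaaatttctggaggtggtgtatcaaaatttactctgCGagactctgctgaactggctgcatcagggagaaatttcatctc

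It held 2 CpG dinucleotides and 45.7% G and C. Every 50-base word starting within 3 kb of this TSS was unique in hg38, so the limit on reads at ACSM2A and ACSM2B did not apply here. The nearest SB Kac peak was 151 kb and the nearest Kbz peak 152 kb away, both at the start of ZFP91, a zinc finger gene.

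GLYATL1 (ENSG00000166840.14, 58905398 to 59043527, plus strand), whose product conjugates glutamine, had no peak. Its canonical TSS was 232 kb from the nearest peak in each list. GLYATL2 (ENSG00000156689.7, 58834065 to 58904215, minus strand), whose product makes long-chain acyl glycines, had none either, and its TSS was 185 kb from control Kac, 264 kb from SB Kac and 265 kb from SB Kbz peaks. Unique 50-base words made up 92.9% of those around the start of GLYATL1 and 98.9% around that of GLYATL2. The starts of GLYAT, GLYATL1 and GLYATL2 shared a stretch with no peak of any list, from 58659806 to 59171664 and 512 kb long. Of all stretches 0.714% were longer, which again is a share of stretches and not of genes.

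Distance from the canonical TSS to the nearest peak does not depend on the length of a gene. For the 8 members the median distance was 175 kb to control Kac peaks, 156 kb to SB Kac peaks and 198 kb to SB Kbz peaks. Over protein-coding genes the median was 0 kb in both Kac lists and 0.204 kb in SB Kbz, with upper quartiles of 4.70, 6.07 and 26.3 kb. Leaving ACSM3 aside, 2.46% (ACSM5) to 12.2% (ACSM1) of protein-coding genes were farther from a control Kac peak than the member. The range was 3.97% (GLYATL2) to 14.8% (ACSM2B) for SB Kac, and 3.58% (ACSM5) to 20.0% (ACSM1) for SB Kbz. Neighbouring members often shared a nearest peak, such as ACSM5, ACSM2A and ACSM2B, so these distances are not independent of each other.

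**Figure D4:**
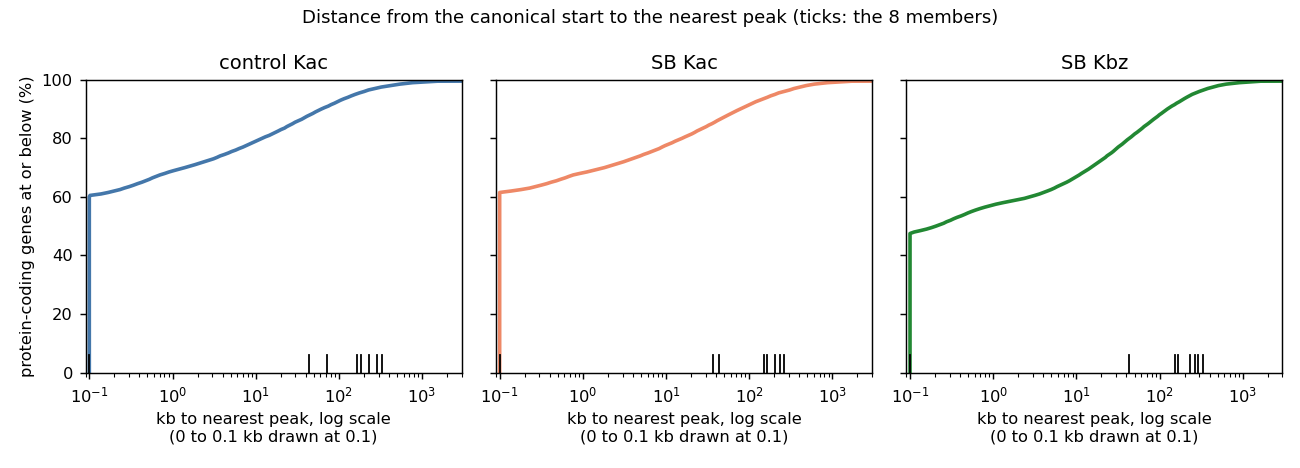
Cumulative percent of protein-coding genes by distance in kb (log scale) from the canonical start to the nearest peak of control Kac, SB Kac and SB Kbz, with a tick for each of the 8 members. ACSM3 sits at the left edge, with its start under a peak, and the other 7 sit between 36.8 and 331 kb.

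The promoters of the members had a feature in common that the choice of genes did not use. In the 300 bases from 250 before to 49 after the canonical TSS, the ratio of observed to expected CpG was 0.339 for ACSM1, 0.302 for ACSM3, 0.248 for GLYATL1, 0.205 for ACSM5, 0.128 for GLYAT, 0.071 for ACSM2B and 0 for ACSM2A and GLYATL2. The median of protein-coding genes was 0.775. With protein-coding genes split by this ratio into 4 groups of equal size, all 8 members lay in the lowest, which reached up to 0.420. In that group 37.2% of genes had a control Kac peak within 3 kb of the canonical TSS, 33.7% an SB Kac peak and 16.3% an SB Kbz peak, against 92.5%, 92.7% and 84.3% in the highest. By the same rule 1 of the 8 members had a peak in each list, against 72.8%, 71.9% and 60.3% of all protein-coding genes. ACSM3 was second among the members in CpG ratio, behind ACSM1, which had no peak. Whether CpG content has a part in the absence of peaks was not tested.

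**Figure D5:**
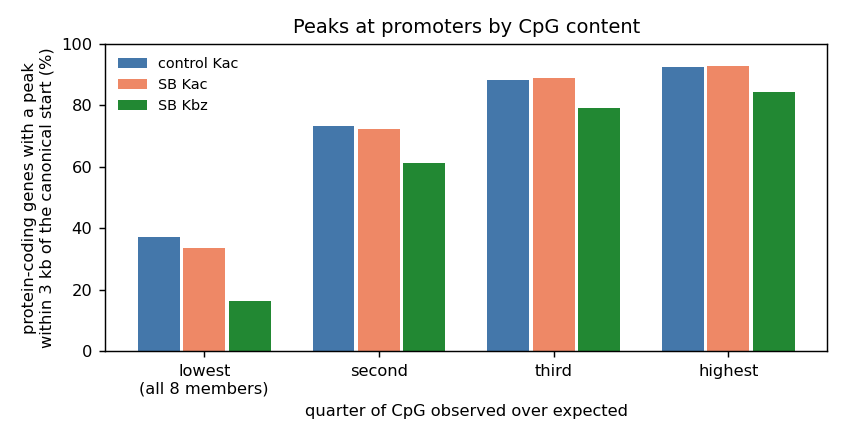
Percent of protein-coding genes with a control Kac, SB Kac or SB Kbz peak within 3 kb of the canonical start, in 4 groups of equal size by the observed over expected CpG ratio of the promoter (lowest on the left, bars from 0). The lowest group, which holds all 8 members, has the fewest genes with peaks, at 37.2%, 33.7% and 16.3% for the lists in that order.

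Short motifs were looked up in the same 300 bases on both strands. GGGCGG, the GC box, was found in ACSM3 and in no other member, against 61.3% of protein-coding promoters. CCAAT was found in ACSM1, ACSM3, GLYAT and GLYATL1, against 36.1%. TATAAA was found in GLYATL2, against 9.71%. CAAAGTCCA, a form of the site of the liver factor HNF4, was found in 0 of 8 members and in 0.319% of promoters. These matches describe letters and not bound factors.

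The related genes outside the member list were looked up at their promoters in the same way. ACSM4, ACSM6, GLYATL1B and GLYATL3, which complete both families, had no promoter peak in any list. BAAT, which conjugates bile acids with glycine or taurine, had a control Kac peak and no SB Kac or SB Kbz peak. Within both families, ACSM3 was the gene with a promoter peak.

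Genes of other steps around benzoyl-CoA are given beside the shares of protein-coding genes with a promoter peak, which as above were 76.5% and 75.7% for Kac in control and SB-treated cells and 64.6% for SB Kbz. Among 19 other acyl-CoA synthetases, 19 had a control Kac peak at the promoter, 17 an SB Kac peak and 15 an SB Kbz peak. ACSL5, a long-chain synthetase, and ACSBG2 had control Kac peaks alone. ACSL6 and SLC27A2 had Kac in both conditions and no Kbz. All 7 genes of coenzyme A synthesis had promoter peaks in each of the 3 lists. Of 12 genes that supply or use glycine, the second substrate of GLYAT, 9 had control Kac, 11 SB Kac and 8 SB Kbz promoter peaks. AMT, of the glycine cleavage system, and AGXT, which makes glycine from glyoxylate, had an SB Kac peak alone, and GNMT had Kac in both conditions without Kbz. Of 10 carriers of carboxylates, 8 had control Kac, 8 SB Kac and 6 SB Kbz promoter peaks. SLC22A7 and SLC22A8 had Kac in both conditions without Kbz.

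Across these 5 lists of 53 genes, 7 had the pattern of most members, no promoter peak in any list, against 21.2% of protein-coding genes. They were ACSM4, ACSM6, GLYATL1B, GLYATL3, AGXT2, SLC5A8 and SLC22A6, the last of which encodes a renal carrier of organic anions including hippurate. The pattern of ACSM3, a promoter peak in each list, was found in 36 of the 53, against 64.1% of protein-coding genes, and 10 had peaks in some of the lists.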

How the data were processed

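Chromatin of control and SB-treated HepG2 cells was digested with micrococcal nuclease and precipitated with pan-Kac or pan-Kbz antibody by the authors. They aligned single reads of 50 bases to hg38 with Bowtie2 2.2.6, kept unique reads, removed PCR duplicates with SAMtools 0.1.19 and called broad peaks with MACS2 2.1.1 at a stated false discovery rate of 0.01. The lowest −log10 q in the deposited lists was 1.31, so they reach past that rate. The deposited columns hold a score, which was not used, a fold ratio over background, and −log10 p and −log10 q values. Input and control Kbz libraries were not analysed here. Peaks on 24 chromosomes were intersected with GENCODE 44 genes (gene body plus 5 kb) and promoters (3 kb to either side of a TSS), with an overlap of at least 1 bp, in Python 3.11.15 with numpy 2.4.6 and pandas 2.3.3. The intersection code was tested with positions placed in and between peaks of the control Kac list, where the answer was known. Sequences and 50-base words came from hg38, and gene windows were aligned with BLAST+ 2.17.0. Exact copies of words were counted on the sequences of the reference used, leaving out alternate and patch sequences. Each group had 1 library, so no test was made. Percentages of genes with peaks stand beside the main counts, but were not computed for some of the alternative settings. Shares of peaks that overlap between whole lists were not computed. Named were the 8 members, genes starting within 3 kb of a peak in a member window, genes of the lists that differed from their list's commonest pattern or shared that of most members, and, as landmarks chosen after their values were seen, the genes at the nearest peaks and in stretches without peaks. The members and the gene lists were chosen with earlier results of these data known. Alternatives were other thresholds, overlaps, flanks, promoter widths, transcripts and joining of peaks. Some items are not reported here.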

Additional observations from a re-analysis of the deposited data

How the results depend on the processing

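The 15 counts and shares were recomputed under 6 to 9 other settings each, out of 11, which gave 108 values in all, of which 65 stayed within the limits set for them and 43 moved. A −log10 q of at least 2, an overlap of at least 50%, promoters of 1 kb, the canonical TSS alone and joining of peaks within 1 kb moved none of them. With a −log10 q of at least 5, or with each list held to its 15000 best peaks by −log10 p, control Kac kept 1 member, 1 peak and 0.117% of the window bases. SB Kac and SB Kbz then had 0 members with a peak, 0 at promoters, 0 peaks and 0% of bases, with 0 Kac peaks particular to SB and 0 Kbz peaks under SB Kac. At that −log10 q, 61.7% (control Kac), 65.8% (SB Kac) and 52.7% (SB Kbz) of protein-coding genes had a peak in the gene body plus 5 kb. With 15000 peaks per list it was 52.7%, 60.1% and 60.7%. Such shares were not computed for promoters under these settings, nor for the nearest-TSS and flank settings that follow. Counting a peak when its nearest protein-coding TSS was that of a member left 1 member and 1 peak in control Kac and 1 peak in SB Kbz. Without flanks, the share of bases under peaks was 0.404%, 0.498% and 0.239% for control Kac, SB Kac and SB Kbz. With flanks of 10 kb it was 0.572%, 0.655% and 0.433%. The ACSM3 window then took in a peak of each list at the start of ERI2, a neighbouring gene. In this setting 2 members had an SB Kac peak, since the window of ACSM1 reached the peak in the intron of ACSM3-213. With the canonical transcript plus 5 kb, a setting chosen after seeing the data, 1 member had a control Kac peak, each list had 1 peak, and the shares were 0.221%, 0.264% and 0.0937%. The GLYAT peak was lost there because it lies outside that transcript. With this window 81.7% of protein-coding genes had a control Kac peak, 80.4% an SB Kac peak and 70.7% an SB Kbz peak. No paired analysis was possible because the groups held 1 library each, and no library could be left out for the same reason. The depth of the libraries was unknown, so a gene without a peak cannot be told apart from a gene marked too weakly to be called.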
